A study of Rattus norvegicus with 24 samples.

Results

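Among the genes that changed in rat INS1 cells 24 h after doxycycline was added, 182 IDs kept at least 50% of that change in the presence of either of the compounds PAIR1 and KIRA9. They are 182 of the 26689 Ensembl gene IDs in the deposited table, and all of them passed the filter on low counts that left 13760 IDs to test. Of the 182, 86 were raised and 96 were lowered by induction at 24 h. They were chosen on counts per 1 M counts of a library (CPM), averaged over the 3 libraries of each 24 h group. A member had a mean of at least 5 CPM in uninduced or induced cells and an induced to uninduced ratio of at least 1.5, or a fall of about the same fold. It also kept 50% or more of the CPM difference with each compound, and none of its 3 uninduced libraries overlapped with the 9 other libraries at 24 h. A single further ID that met these conditions was left out by the rule. Members with these properties are candidates for genes that respond to doxycycline itself, but that cause cannot be told apart from others here, since no group received doxycycline without the transgene or a compound without doxycycline.

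INS1 cells come from a rat insulinoma and stand in for the insulin-secreting pancreatic beta cell, and every sample carried a doxycycline-inducible transgene for mouse IRE1α (Ern1). Uninduced cells received vehicle only, induced cells doxycycline and vehicle, and the compound groups doxycycline together with PAIR1 or with KIRA9, which the study describes as modulators of the IRE1α kinase. Poly(A) RNA was sequenced at 4 h and 24 h, and each of the 8 groups has 3 libraries. The transgene overexpresses a mouse protein in rat cells. The sources used here do not name the clone or the doses. They also do not say whether replicates were separate cultures, and p-values therefore reflect no more than the spread among these libraries, which may be technical.

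IRE1α is a sensor of unfolded proteins in the endoplasmic reticulum. It carries a kinase and an RNase in its cytosolic part. Upon activation the RNase removes an intron from the mRNA of XBP1, which then encodes a transcription factor for chaperone and secretory genes, and it can also cut other mRNAs at the endoplasmic reticulum, a process called regulated IRE1-dependent decay. Ligands of the kinase pocket can reduce the RNase activity in full or in part. Doxycycline is an antibiotic of the tetracycline class that serves as a gene switch in cell culture, and tetracyclines are also known to slow protein synthesis in mitochondria.

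The table gives IDs without gene names. The RefSeq rat gene reference used here held no Ensembl IDs, so 0 of the 26689 could be matched to it. No member can therefore be given a gene name, a function or a sequence. Neither the transgene, the endogenous Ern1 gene, beta cell markers nor lists of mitochondrial, unfolded protein response and other genes were read here. For the same reason 4 members are printed by ID, the 2 with the largest ratio in each direction.

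Library totals ran from 12.6 to 23.8 M counts, and the lowest count of a member in a library was 7. For the 6 induced vehicle libraries the time characteristic contradicts the title, while the column names of the deposited counts give the times of the title. The title was used, and with the other assignment 94 IDs met the rule, 44 of them among the 182. In 6 libraries of several groups, a block of 37 IDs took 0.666 to 0.744% of the counts against 0.0704 to 0.0852% in the others. No member belongs to this block. The libraries are replicate 2 of uninduced cells and replicate 3 of induced cells at 4 h, and at 24 h replicate 2 of uninduced cells, replicates 1 and 2 of induced cells and replicate 1 of PAIR1. Without these 6 libraries 201 IDs met the rule, of which 143 were among the 182. Counts of called members without them stand beside each comparison.

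The 24 h values chose the members, so they are given as a description with no test. The 86 raised members had a median log2 ratio of induced to uninduced CPM of 0.82, with a range from 0.59 to 1.95. 24 of them were past 2-fold and 0 past 4-fold. The 96 lowered members had a median of −1.39 and ranged from −3.84 to −0.59, with 60 past 2-fold, 25 past 4-fold and 4 past 8-fold. The lowered members thus spanned a wider range of change than the raised ones. On this scale the median over all tested IDs stood at 0.14, because CPM is relative to the library total. With the scaling of edgeR that median was 0.005, and the members' medians became 0.69 for the raised and −1.52 for the lowered. No member changed direction with that scaling, which follows from the ratio limit of the rule being larger than the shift. With scaled CPM in place of CPM, 192 IDs met the rule, of which 134 were among the 182.

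The members were mostly of low to middling abundance. In uninduced cells at 24 h, 47 of the raised members lay between 10 and 100 CPM, 23 lay lower and 16 higher, with a median of 32.2 CPM. Of the lowered members, 66 lay between 10 and 100 CPM, 14 lower and 16 higher, with a median of 30.8 CPM. Summed, the raised members took 0.797 to 0.804% of the counts in the 3 uninduced libraries at 24 h and 1.43 to 1.45% in the induced ones. With PAIR1 they took 1.39 to 1.42% and with KIRA9 1.28 to 1.30%. The lowered members took 0.639 to 0.657% in uninduced and 0.267 to 0.272% in induced libraries, against 0.312 to 0.323% with PAIR1 and 0.380 to 0.395% with KIRA9. By these sums the induced libraries lay farthest from the uninduced ones in both directions, PAIR1 next and KIRA9 nearest. Under the scaling of edgeR the lowered members kept this order, with medians against uninduced of −1.52, −1.20 and −0.75. For the raised members the scaled medians were 0.69 in induced, 0.69 in PAIR1 and 0.63 in KIRA9 cells. Induced and PAIR1 cells were therefore not apart by that measure. In bulk RNA, a change in fewer cells and a smaller change in every cell cannot be told apart.

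**Figure D1:**
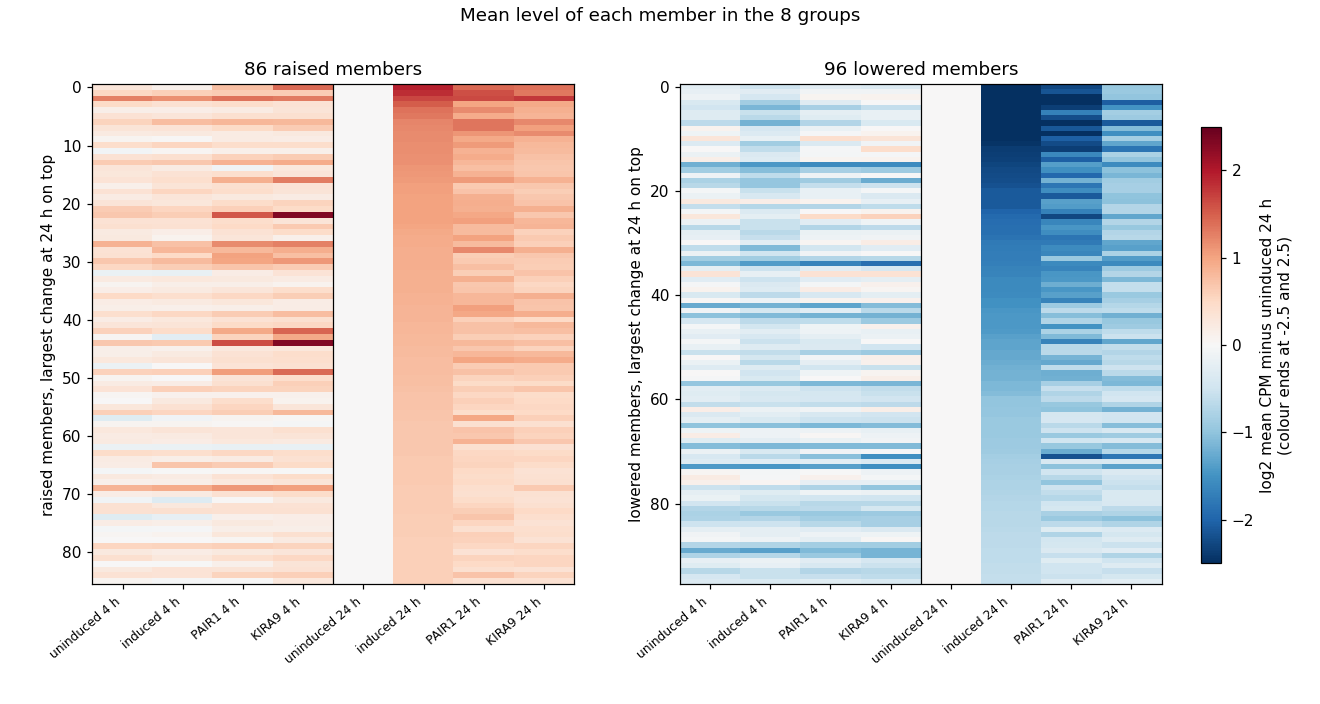
Mean level of every member in the 8 groups, as log2 mean CPM minus that of uninduced cells at 24 h (colour, ending at −2.5 and 2.5), with 1 row per member, the 86 raised on the left and the 96 lowered on the right, sorted by the size of the 24 h change. The 24 h columns of induced, PAIR1 and KIRA9 cells share the colour that the rule requires, while most members are near 0 in the 4 columns at 4 h and a few raised members are high with PAIR1 and KIRA9 at 4 h.

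Both compounds left most of the induction change in place, as the rule asks, but not to the same extent. With PAIR1 the raised members kept a median of 79.9% of the CPM change (range 53 to 159%), and with KIRA9 65% (50.7 to 124%). The lowered members kept a median of 90.7% with PAIR1 (51 to 175%) and 66.2% with KIRA9 (50 to 160%). A larger share of the change was kept with PAIR1 than with KIRA9 in 66 of the 86 raised and 73 of the 96 lowered members. Members that went past the induced level were counted by their share, not by their distance from that level. This lean was not particular to the members. In edgeR at 24 h, PAIR1 lay above KIRA9 in 57 of the 86 raised members and below it in 74 of the 96 lowered ones. Other IDs that met the same level and ratio conditions, with induced and uninduced libraries apart, leaned alike. PAIR1 lay above KIRA9 in 1233 of the 1413 raised and below it in 1408 of the 1519 lowered ones. Only 10 raised and 6 lowered members lay between 50 and 60% with PAIR1, against 34 and 38 with KIRA9. Many members therefore stood just inside the limit under KIRA9. With PAIR1 14 raised and 19 lowered members went past the induced level, and with KIRA9 7 and 9. As the doses are unknown here, these shares do not compare the compounds at matched doses.

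**Figure D2:**
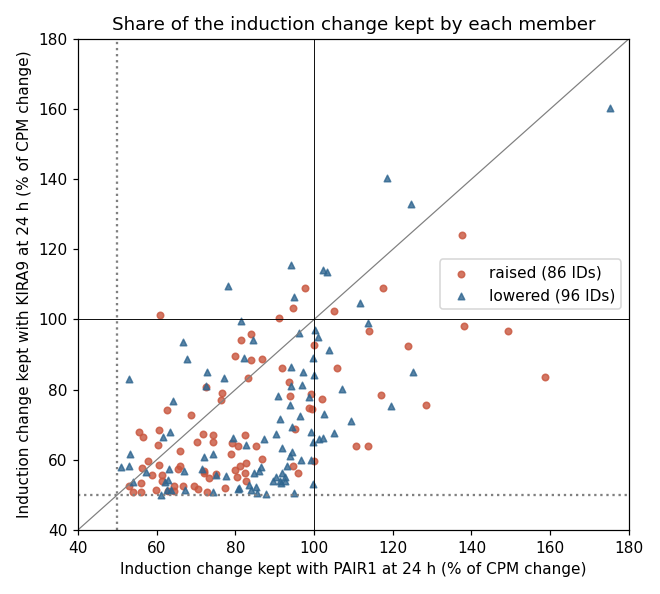
Share of the 24 h induction change kept by each member, in percent of the CPM difference between induced and uninduced means, with PAIR1 on the x axis and KIRA9 on the y axis (circles, 86 raised members, and triangles, 96 lowered members). Dotted lines mark the 50% limit, solid lines 100% and equality, and most points lie below the line of equality, with a median of 90.7% with PAIR1 and 66.2% with KIRA9 for the lowered members.

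The share kept by the lowered members depends on the choice of CPM or log2 CPM. For the raised members it depends on the scaling between libraries. Their median kept with PAIR1 was 79.9% on CPM, but their edgeR medians against uninduced at 24 h were 0.69 in both induced and PAIR1 cells. On log2 CPM, all 86 raised members kept at least 50% with both compounds. Of the 96 lowered members, 90 did so with PAIR1 and 56 with KIRA9, and 53 did with both. The other 43 lowered members were closer to the uninduced than to the induced level in fold terms with at least 1 compound. Their lowest log2 share was 44.5% with PAIR1 and 24.9% with KIRA9. At the limits, the raised ratios nearest to the threshold were 1.5078 and 1.5103 inside and 1.4997 and 1.4873 outside. For the lowered members they were 0.6652 and 0.6629 inside and 0.66702 and 0.67146 outside. The smaller of the 2 shares kept was 50.04 and 50.16% just inside and 49.94 and 49.87% just outside.

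The raised member with the largest ratio was ENSRNOG00000036682. At 24 h it stood at 3.49, 3.58 and 2.62 CPM in the uninduced libraries and at 11.2, 12.7 and 13.5 CPM in the induced ones. It stood at 9.93, 7.84 and 8.27 CPM with PAIR1 and at 7.88, 9.94 and 7.31 CPM with KIRA9. The induced libraries were 3.87-fold above the uninduced ones on average, the compound libraries lay between both groups, and PAIR1 and KIRA9 overlapped. At 4 h the levels were 4.19, 3.51 and 4.32 CPM in uninduced cells, and 3.91, 3.82 and 2.88 in induced cells. They were 5.41, 5.18 and 5.73 CPM with PAIR1, and 9.78, 7.99 and 8.03 with KIRA9. Thus uninduced and induced cells overlapped at 4 h, PAIR1 lay above both and KIRA9 above PAIR1. In edgeR's quasi-likelihood test the difference between induced and uninduced libraries at 4 h missed the threshold (log2 fold change −0.17 ± 0.16 SE, adjusted p = 0.94). KIRA9 was higher than uninduced by 1.10 ± 0.15 on the log2 scale (adjusted p = 2.9e-05) and higher than induced by 1.28 ± 0.16 (adjusted p = 3.6e-06). PAIR1 was higher than induced by 0.62 ± 0.16 (adjusted p = 0.029) and its difference from uninduced, 0.45 ± 0.16, missed the threshold (adjusted p = 0.16). PAIR1 was lower than KIRA9 by −0.65 ± 0.15 on the log2 scale (adjusted p = 0.02). The 2 calls of ENSRNOG00000036682 that involve PAIR1 were lost when some single libraries were left out, although the libraries did not overlap in either comparison. The call against induced cells was lost without PAIR1 replicate 1, 2 or 3 (adjusted p = 0.073, 0.059 and 0.12) and without induced replicate 2 or 3 (0.057 and 0.18). The call against KIRA9 was lost without KIRA9 replicate 1 (0.13) or PAIR1 replicate 1 or 2 (0.079 and 0.091).

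The other raised member printed, ENSRNOG00000014566, is more abundant. At 24 h it stood at 90.6, 96.1 and 94.3 CPM in uninduced libraries, 345, 332 and 330 in induced ones, 283, 282 and 296 with PAIR1, and 231, 236 and 229 with KIRA9. The 4 groups did not overlap at 24 h, in the order uninduced, KIRA9, PAIR1 and induced, and 80% of the change was kept with PAIR1 and 57.2% with KIRA9. At 4 h the levels were 131, 138 and 134 CPM in uninduced cells and 148, 136 and 140 in induced cells, and they were 149, 140 and 147 with PAIR1 and 152, 145 and 141 with KIRA9. Uninduced cells at 4 h therefore stood higher than at 24 h. At 4 h, induced cells overlapped with uninduced ones. The 4 h difference from uninduced missed the threshold in induced (log2 0.08 ± 0.04 SE, adjusted p = 0.82 in edgeR), PAIR1 (0.12 ± 0.04, 0.12) and KIRA9 cells (0.12 ± 0.04, 0.052). The KIRA9 difference of ENSRNOG00000014566 passed it in DESeq2 (adjusted p = 0.045), without KIRA9 replicate 3 (0.047) and without uninduced replicate 2 (0.049).

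Of the lowered members, ENSRNOG00000004089 had the largest ratio, with uninduced 14.3-fold above induced at 24 h. Its 24 h levels were 130, 100 and 98.1 CPM in uninduced, 5.94, 9.43 and 7.52 in induced, 22.9, 23.7 and 21.1 in PAIR1 and 56, 58.4 and 54.8 in KIRA9 libraries. No 2 of these groups overlapped. The member kept 85.3% of the CPM change with PAIR1 and 52.1% with KIRA9, but 59.3% and 24.9% of the log2 change. At 4 h it stood at 90.3, 89.6 and 92.8 CPM in uninduced cells and at 75.9, 75.4 and 78.9 in induced cells, with no overlap. With PAIR1 it stood at 88.3, 95 and 85.7 CPM and with KIRA9 at 87.3, 88.3 and 83.6. The lower level in induced cells at 4 h, −0.24 ± 0.09 on the log2 scale, did not pass the threshold in edgeR (adjusted p = 0.61).

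ENSRNOG00000049912 followed, with uninduced 13.1-fold above induced at 24 h. It stood at 219, 177 and 194 CPM in uninduced, 15.5, 13.7 and 15.7 in induced, 40.5, 44.7 and 46.9 in PAIR1 and 92, 109 and 109 in KIRA9 libraries at 24 h. The 24 h groups were again apart, and 84% of the CPM change was kept with PAIR1 and 51.4% with KIRA9, or 58.1% and 25% on the log2 scale. At 4 h it stood at 157, 176 and 181 CPM in uninduced and 167, 160 and 157 in induced cells, which overlapped. With PAIR1 it stood at 176, 194 and 184 CPM and with KIRA9 at 183, 185 and 187. The 4 h difference between induced and uninduced cells, −0.08 ± 0.07 on the log2 scale, missed the threshold in edgeR (adjusted p = 0.94). Both of these strongly lowered members thus reached their low level after 4 h.

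**Figure D3:**
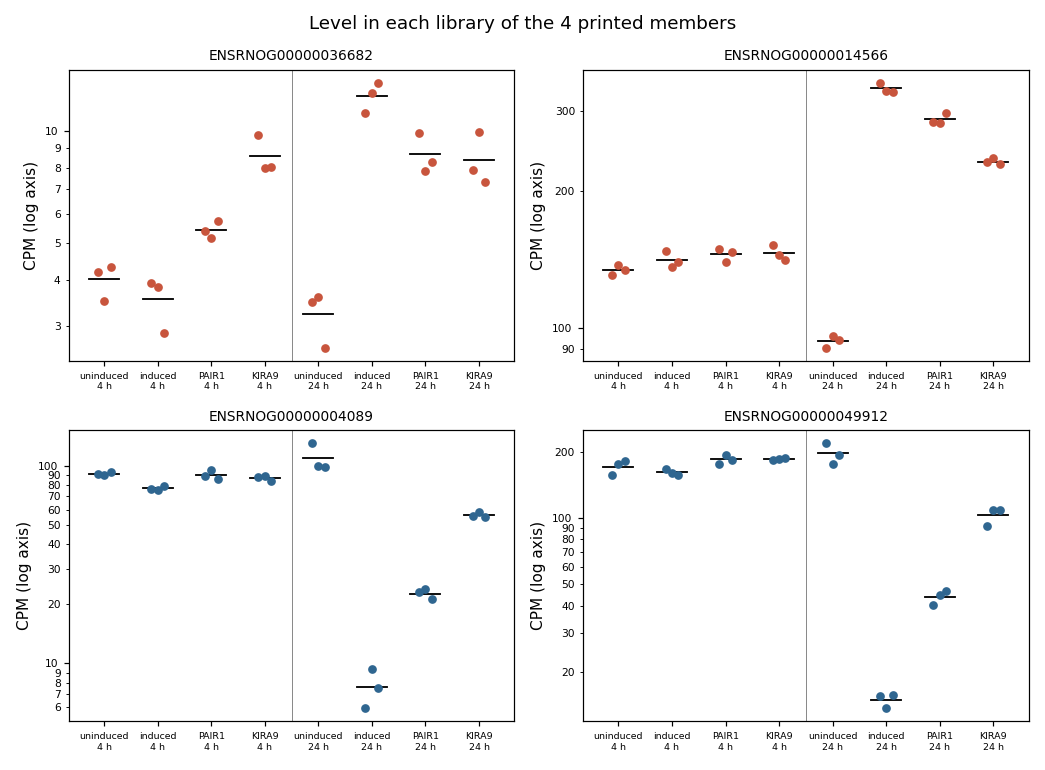
CPM of the 4 printed members in each of the 24 libraries (points, log axis), by group, with the group mean as a bar, raised members in the upper panels and lowered members in the lower panels. ENSRNOG00000004089 falls to between 5.94 and 9.43 CPM in the induced libraries at 24 h, while its levels at 4 h lie between 75.4 and 95 CPM in every group.

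The 12 libraries at 4 h took no part in the choice of the members and were used to test them. The question was whether the 24 h changes were already present at 4 h. With induction alone they were in part for the lowered members. 22 of the 96 were called lower and 0 higher in edgeR (adjusted p below 0.05), where 0.262% of all tested IDs were called lower. These 22 are 22.9% of the lowered members and 61.1% of the 36 IDs called lower. Their log2 changes were small, from −0.54 to −0.22 with a median of −0.45. Over all 96 the median was −0.20, and 81 lay below 0. Of the 1519 other IDs with a 24 h fall that met the same ratio and level conditions without overlap of induced and uninduced libraries, 13 were called lower at 4 h (0.856%). DESeq2 called 26 of the 96 lower, where it called 0.422% of all tested IDs lower. Without the 6 libraries that share the block, edgeR called 17 of the 96 lower and 0.196% of all tested IDs. All 3 induced libraries lay below all 3 uninduced libraries in 47 of the 96, against 6.6% of all tested IDs.

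Of the 86 raised members, edgeR called 0 higher and 0 lower with induction at 4 h. As it called only 0.0363% of all tested IDs higher, this count does not set the raised members apart. At an unadjusted p below 0.05, 10 of the 86 were higher and 0 lower, where 2.97% of all tested IDs were higher. DESeq2 called 1 of them higher and 0.0436% of all tested IDs. Without uninduced replicate 2, edgeR also called 1 higher. Their median log2 change was 0.02, and in 10 of the 86 all induced libraries lay above all uninduced ones, against 5.06% of all tested IDs. The assignment of times by the time characteristic exchanges the 4 h and 24 h induced libraries. Then 69 raised members were called higher at 4 h (30.9% of all tested IDs were) and 81 lowered members lower (32.3%). The induced libraries in that comparison are those that chose the members, so nothing is read from these counts.

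With PAIR1 and doxycycline at 4 h, 22 of the 86 raised members were called higher than in uninduced cells and 0 lower, where 1.56% of all tested IDs were called higher. The called log2 changes ran from 0.13 to 0.97 with a median of 0.22. Over all 86 the median was 0.14, and 79 lay above 0. Of the 1413 other IDs with a 24 h rise of like size, 38 were called higher and 21 lower. Of the 96 lowered members 6 were called lower and 0 higher (0.988% of all tested IDs were called lower), with a median over the 96 of −0.04. The PAIR1 libraries lay wholly above the uninduced ones in 48 raised members (9.54% of all tested IDs) and wholly below in 22 lowered members (10.4%). Without single libraries fewer of all tested IDs were called in either direction, 192 to 232 in place of 351. The number of raised members called fell to 14 without PAIR1 replicate 1 and to 8 without PAIR1 replicate 3. It fell to 13, 11 and 12 without uninduced replicate 1, 2 and 3, and to 10 without the 6 block libraries (0.814% of all tested IDs were then called higher). The number of lowered members called fell from 6 to 3 without PAIR1 replicate 2, uninduced replicate 1 or uninduced replicate 3, and to 2 without PAIR1 replicate 3 or uninduced replicate 2. It was 3 without the 6 block libraries (0.4% of all tested IDs were then called lower).

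With KIRA9, 33 of the 86 raised members were called higher than in uninduced cells at 4 h and 0 lower, where 5.44% of all tested IDs were called higher. The called changes ran from 0.12 to 1.63 with a median of 0.32, and 75 of the 86 lay above 0. Of the 1413 other IDs raised at 24 h, 91 were called higher and 116 lower. The lowered members split, with 16 called lower and 8 higher (5.49% of all tested IDs were called lower and 5.44% higher). The 16 ran from −1.14 to −0.12 and the 8 from 0.13 to 0.38. The KIRA9 libraries lay wholly above the uninduced ones in 44 raised and 25 lowered members (13.7% of all tested IDs), and wholly below in 1 raised and 27 lowered members (14.1%). Without the 6 block libraries 26 raised members were called higher, and 15 lowered members lower and 6 higher (3.62% of all tested IDs were then called higher and 3.34% lower). The 8 fell to 5 without KIRA9 replicate 1 or uninduced replicate 2, to 4 without KIRA9 replicate 3 and to 3 without uninduced replicate 1. Over all tested IDs, calls in either direction fell from 1505 to between 1071 and 1212 without single libraries. The comparisons of induced, PAIR1 and KIRA9 cells with uninduced cells share the same 3 uninduced libraries.

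A large part of the summed rise at 4 h came from 1 abundant raised member, chosen for description after its values were seen. In uninduced cells at 4 h it stood at 2990, 3100 and 3090 CPM and in induced cells at 3010, 3060 and 2970. PAIR1 brought 6000, 5930 and 5990 CPM and KIRA9 9530, 9390 and 9540. Uninduced and induced cells overlapped, and the compound groups lay far apart from them and from each other. Relative to uninduced it was higher by 0.97 ± 0.02 SE on the log2 scale with PAIR1 (adjusted p = 1.4e-18) and by 1.63 ± 0.02 with KIRA9 (adjusted p = 5.9e-23) in edgeR. At 24 h it stood at 2010, 1890 and 1860 CPM in uninduced, 3290, 3390 and 3370 in induced, 3310, 3370 and 3370 in PAIR1 and 3310, 3270 and 3160 in KIRA9 libraries. Its 24 h level was thus alike in all 3 groups that received doxycycline, and with both compounds it was higher at 4 h than at 24 h. The other 85 raised members together took 0.726 to 0.731% of the counts in uninduced and 0.731 to 0.738% in induced libraries at 4 h. With PAIR1 they took 0.784 to 0.789% and with KIRA9 0.800 to 0.814%. All 86 together took 1.03 to 1.04% in both uninduced and induced libraries, 1.38 to 1.39% with PAIR1 and 1.74 to 1.77% with KIRA9. KIRA9 thus lay above PAIR1, and PAIR1 above uninduced and induced cells, with or without the abundant member. Uninduced and induced libraries overlapped with it and met at 0.731% without it. At 4 h, 11 raised members stood above their induced 24 h mean with KIRA9 and 8 with PAIR1, against 2 in induced and 1 in uninduced cells. The rule used those induced 24 h means, so these counts are only described. 3 raised members called with KIRA9 were at least 2-fold above uninduced at 4 h. No share of other IDs stands beside these counts, so they do not set the raised members apart.

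The compounds were also set against induced cells at 4 h. With PAIR1, 19 of 86 raised members were called higher and 0 lower, and 30 of 96 lowered members higher and 2 lower (2.31% of all tested IDs were called higher and 0.887% lower). The medians over all members were 0.11 for the raised and 0.15 for the lowered. With KIRA9, 32 raised members were called higher and 0 lower, and 35 lowered members higher and 12 lower (6.01% of all tested IDs were called higher and 5.66% lower). The medians were 0.14 for both. Among the 1519 other lowered IDs, 112 were called higher and 3 lower with PAIR1, and 238 higher and 50 lower with KIRA9. Without the 6 block libraries the raised members called higher numbered 10 with PAIR1 and 24 with KIRA9, and the lowered members called higher 27 and 34. Of all tested IDs 1.32% and 4.22% were then called higher. The 19 raised members fell to 9 without PAIR1 replicate 3. The 2 lowered members called lower with PAIR1 fell to 0 without PAIR1 replicate 2 or induced replicate 1 and to 1 without PAIR1 replicate 3 or induced replicate 2 or 3, and the 12 with KIRA9 fell to 7 without KIRA9 replicate 3. Without KIRA9 replicate 3, 1 raised member was called lower with KIRA9 than in induced cells. Over all tested IDs, calls of PAIR1 against induced cells fell from 440 to between 241 and 310 without single libraries. Those of KIRA9 against induced cells fell from 1606 to 1232 without KIRA9 replicate 3.

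**Figure D4:**
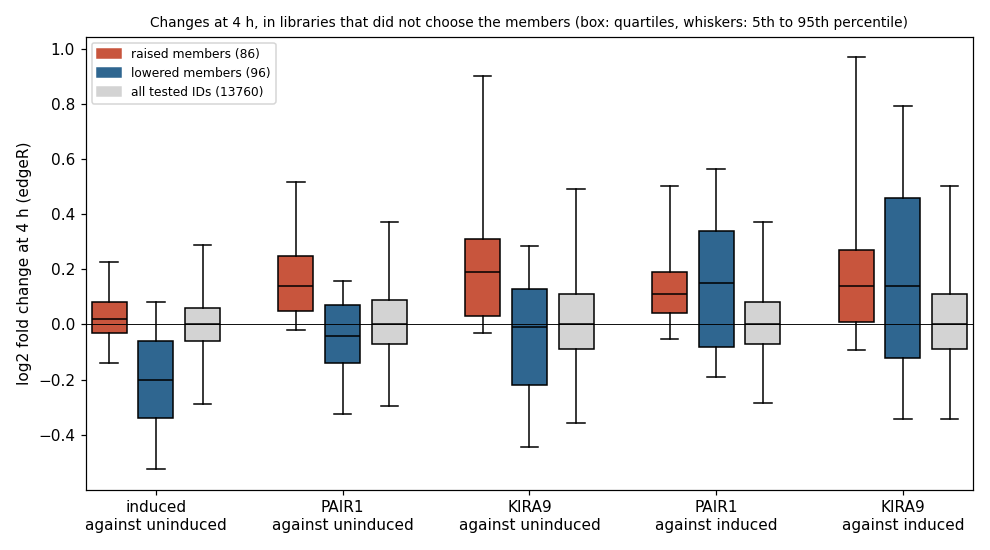
Log2 fold changes at 4 h (edgeR) in 5 comparisons for the 86 raised members, the 96 lowered members and all 13760 tested IDs, with the median as a line, quartiles as boxes and the 5th to 95th percentile as whiskers. The raised members have medians of 0.14 and 0.19 with PAIR1 and KIRA9 against uninduced cells, and the lowered members have a median of −0.20 with induction alone.

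The 22 lowered members called lower at 4 h with induction were described further with their own values in each comparison, which share libraries with the comparison that chose them. Against uninduced cells at 4 h their median was 0.00 with PAIR1 (0 called higher and 2 lower) and 0.12 with KIRA9 (8 higher and 1 lower). Of all tested IDs, 1.56% were called higher and 0.988% lower with PAIR1, and 5.44% and 5.49% with KIRA9. At 24 h their medians against uninduced cells were −1.94 with induction alone, −1.68 with PAIR1 and −0.87 with KIRA9. By these medians the members were lower with induction alone at both times, and with either compound at 24 h. At 4 h with a compound their median was at or above the uninduced level. The lower level at 4 h and at 24 h follows from how they were picked. On the log2 scale 13 of the 22 kept 50% of the 24 h change with both compounds.

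PAIR1 and KIRA9 were also compared directly at 4 h. With PAIR1 relative to KIRA9, 1 raised member was called higher and 7 lower, and 1 lowered member was called higher and 3 lower (0.821% of all tested IDs were called higher and 1.24% lower). The median log2 differences were −0.03 over the raised and 0.00 over the lowered members. Without the 6 block libraries 6 raised and 4 lowered members were called in either direction (1.68% of all tested IDs). The 8 raised members fell to 5 without KIRA9 replicate 1 or PAIR1 replicate 1. The 4 lowered members fell to 1 without KIRA9 replicate 1 or PAIR1 replicate 2, and to 2 without KIRA9 replicate 2, KIRA9 replicate 3 or PAIR1 replicate 1. Over all tested IDs, calls in either direction fell from 283 to between 189 and 224 without single libraries.

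The change between 4 h and 24 h was followed within each group, on mean CPM and as a description, since the 24 h values chose the members. Uninduced cells changed as well. Raised members fell by a median of 0.25 on the log2 scale in uninduced cells, where 77 of 86 were lower at 24 h than at 4 h, and rose in induced cells by a median of 0.58, with 84 of 86 higher. With PAIR1 their median change was 0.33 and with KIRA9 0.19. Lowered members moved the other way, with a median of 0.26 in uninduced cells (79 of 96 higher at 24 h) and −0.82 in induced cells (88 of 96 lower). Their medians were −0.75 with PAIR1 and −0.35 with KIRA9. For 24 raised and 23 lowered members the change with time was larger in uninduced than in induced cells.

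A subset of members had, in uninduced cells at 4 h, already a level nearer to the induced than to the uninduced level at 24 h. This held for 19 of the 86 raised members (22.1%), against 88 of the 1413 other IDs with a rise of like size (6.23%). It held for 22 of the 96 lowered members (22.9%), against 82 of 1519 (5.4%). No test is given, as the measure uses the 24 h means of the rule. In the 19 raised members the median log2 change from 4 h to 24 h was −0.58 in uninduced and 0.25 in induced cells, and −0.04 and −0.03 in the presence of PAIR1 and KIRA9. In the 22 lowered members it was 0.79 in uninduced and −0.10 in induced cells, and 0.20 and 0.12 in the presence of PAIR1 and KIRA9. Since the 4 h and 24 h uninduced levels picked these 41 members, their change with time in uninduced cells follows from that choice and is only described. Of these 22 lowered members, 0 were called with induction at 4 h, where 0.262% of all tested IDs were called lower. The uninduced 4 h level that picked them is also the reference of that test, so nothing is read from this count.

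The other 141 members are those left by the same split, and their values are likewise a description. In the 67 raised ones the median change with time was −0.21 in uninduced and 0.63 in induced cells, and 0.40 and 0.28 in the presence of PAIR1 and KIRA9. In the 74 lowered ones it was 0.17 in uninduced and −1.11 in induced cells, and −1.15 and −0.65 in the presence of PAIR1 and KIRA9. All 22 lowered members that were called lower with induction at 4 h belonged to these 74 (0.262% of all tested IDs were called lower). As the split and the test share the uninduced 4 h libraries, this too is only described.

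**Figure D5:**
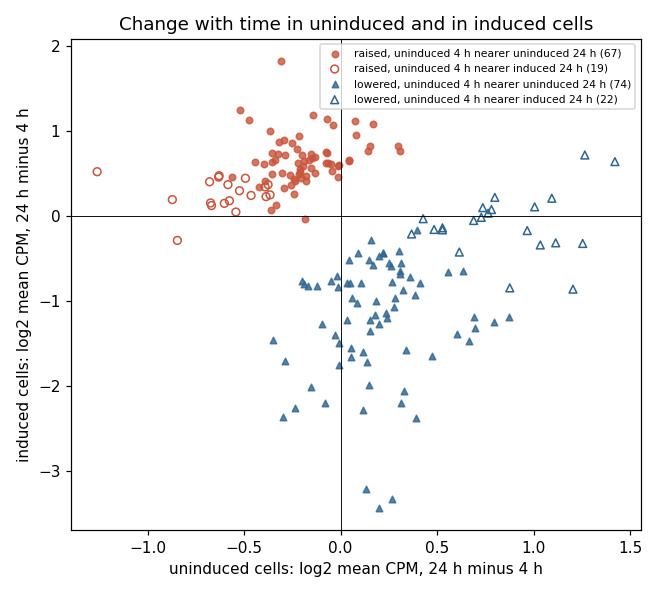
Change with time of each member, as log2 mean CPM at 24 h minus 4 h, in uninduced cells (x axis) and in induced cells (y axis), for raised (circles) and lowered members (triangles). Open symbols mark the 19 raised and 22 lowered members whose uninduced level at 4 h lay nearer to the induced level at 24 h, and their place away from 0 on the x axis follows from how they were picked.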

How the data were processed

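The authors deposited raw read counts per Ensembl gene ID for 24 libraries. Libraries were made from poly(A)-enriched RNA, per the labels' protocols. Per the submitters' processing notes, HISAT2 and HTSeq were used, with no version named. For the genome build, annotation and strand setting the sources used here give nothing. Reads of genes that overlap or nearly share a sequence may thus be mixed.

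The members, the lists and the tests were chosen with earlier results of these data known. Levels are CPM, counts divided by the column total. Tests used edgeR 4.0.16 in R 4.3.3 on all 24 libraries, with a mean for each of the 8 groups, TMM scaling (factors 0.978 to 1.087) and filterByExpr at a minimum count of 10. The filter kept 13760 IDs, holding at least 99.94% of each library's counts, and dropped 12929. Quasi-likelihood p-values were adjusted by the Benjamini-Hochberg method over these IDs, and calls were made below an adjusted p of 0.05. SEs and adjusted p-values are from this test except where DESeq2 1.42.0, the alternative tool, is named. The procedure was tested on simulated data. Replicates differed beyond counting noise (chi-square per degree of freedom 3.57 to 19.1), so none was merged. A count of 0 allows up to 3 counts, or 0.126 to 0.238 CPM depending on the library, for counting error only.

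The rule for printing IDs asked for named genes. As the IDs have no names, it gave the 2 members with the largest ratio in each direction. The gene lists and marker lists set out for the report could not be read, nor any promoter. Same-numbered libraries of different groups did not vary together (correlations −0.25 to 0.11 at 4 h and −0.20 to 0.23 at 24 h), so the numbers were not used as a block.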

Additional observations from a re-analysis of the deposited data

Results flagged for a closer look

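Some members lay on opposite sides of uninduced cells at 4 h and 24 h, with all 3 libraries of a group on 1 side of all 3 uninduced libraries at each time. None of these differences between the times was tested, and the 24 h side was set by the rule. With KIRA9, 25 lowered members were above all uninduced libraries at 4 h and below them at 24 h. Over all tested IDs, 13.7% had all KIRA9 libraries above all uninduced libraries at 4 h. With PAIR1, 3 lowered members did the same, where 9.54% of all tested IDs lay above. Of the raised members, 3 were below uninduced cells at 4 h with induction alone (6.6% of all tested IDs), 1 with PAIR1 (10.4%) and 1 with KIRA9 (14.1%).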

How the results depend on the processing

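Of the alternatives computed for member counts, medians and numbers of called IDs, 113 moved the value and 511 did not. A count was taken as moved past 1.5 times, and a median past 1 SD between the libraries or past 0.02 where the SD was smaller. Counts of called members in this section show how the values move. Where no share of all tested IDs in that direction stands beside them, they do not set the members apart. The assignment of times by the characteristic moved most. It gave 94 members, and 8700, 8733 and 8939 IDs called at 4 h for induced against uninduced, PAIR1 against induced and KIRA9 against induced, and 3787 for induced against uninduced at 24 h. With it, induction at 4 h called 69 raised members higher and 1 lower (median 0.48), and 1 lowered member higher and 81 lower (median −1.23). PAIR1 against induced called 8 raised members higher and 58 lower (median −0.29), and 78 lowered members higher and 0 lower (median 1.11). KIRA9 against induced called 10 and 49 (median −0.25) and 79 and 4 (median 1.15). Under it the log2 change of ENSRNOG00000036682 turned to 1.51 for induced against uninduced, −1.06 for PAIR1 against induced and −0.41 for KIRA9 against induced, and that of ENSRNOG00000014566 to −1.07 for both compounds against induced. This assignment exchanges the induced libraries of the 2 times by construction.

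The number of members was 84 at a ratio of 2 or 0.5 and 67 at a share kept of at least 0.7, and ran from 182 to 215 without single libraries. Of the IDs that met the rule without a single library, 154 to 180 were among the 182. The fewest, 154 of 209, remained without uninduced replicate 1 at 24 h. DESeq2 called 64 IDs with induction at 4 h, 1 raised member higher with induction, 1 raised member lower for KIRA9 against induced and 8 lowered members for PAIR1 against KIRA9. Relative log expression factors and the replicate block also gave 1 raised member lower for KIRA9 against induced. The replicate block moved no other count or median. With no filter, 5 lowered members were called higher for KIRA9 against uninduced.

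Fitting only the compared groups, fewer samples, called 26 IDs for induced against uninduced, 187 for PAIR1 against uninduced and 267 for PAIR1 against induced at 4 h, and 2041 for KIRA9 against uninduced at 24 h. It called 14 lowered members lower with induction, 11 raised higher and 2 lowered lower for PAIR1 against uninduced, and 10 raised higher and 1 lowered lower for PAIR1 against induced. An adjusted p below 0.01 can only lower the counts, over all tested IDs as over the members. At that threshold PAIR1 against uninduced called 8 raised members higher and 2 lowered lower, and PAIR1 against induced 9 and 0. PAIR1 against KIRA9 called 4 raised and 1 lowered member. KIRA9 against uninduced called 3 lowered members higher and KIRA9 against induced 7 lower. The share of all tested IDs called at that threshold is not given here, so nothing about the members is read from these counts.

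Without the 6 block libraries, fewer samples, 167 IDs were called for PAIR1 and 957 for KIRA9 against uninduced, and 227 and 986 against induced. PAIR1 against uninduced called 10 raised members higher and 3 lowered lower. PAIR1 against induced called 10 raised members higher and 0 lowered lower, with a median of 0.17 for the lowered. KIRA9 against induced called 7 lowered members lower. Among lowered members that keep 50% of the log2 change, an alternative chosen after seeing the data, 13 were called lower with induction, 10 lower for KIRA9 against uninduced, 14 higher for PAIR1 against induced, and 17 higher and 7 lower for KIRA9 against induced. Members on the log2 share, also chosen after seeing the data, numbered 190, of which 139 were among the 182.

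Leaving out single libraries gave these ranges. For PAIR1 against uninduced 192 to 232 IDs, 8 to 15 raised members higher and 2 to 4 lowered lower were called. For PAIR1 against induced the ranges were 241 to 310 IDs, 9 to 15 raised higher and 0 to 2 lowered lower, with a median of 0.12 to 0.17 for the lowered. For KIRA9 against uninduced 3 to 6 lowered members were called higher, with medians of 0.15 to 0.19 for the raised and −0.05 to −0.01 for the lowered. For KIRA9 against induced 0 to 1 raised and 7 to 9 lowered members were called lower, with medians of 0.12 to 0.17 and 0.11 to 0.16. For PAIR1 against KIRA9 5 to 7 raised and 1 to 3 lowered members were called. Induction called 0 to 1 raised members higher, with a median of −0.20 to −0.17 for the lowered. Where no construction is named, the cause was not tested. With 3 libraries a group, log2 differences of about the size of the SEs given are not detectable at this depth.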
